A study of Homo sapiens with 21 samples.

Results

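The BCL2 family decides whether a cell keeps its mitochondria intact. Its transcripts were followed here in MM.1S, a human multiple myeloma cell line, through 3 days of pomalidomide and through lentiviral knockdown of ARID2 and in libraries labelled as a knockdown of Aiolos. The 10 members were taken by name from the deposited table of 17691 genes: the antiapoptotic genes BCL2, BCL2L1, MCL1 and BCL2A1, the BH3-only genes BCL2L11, PMAIP1, BBC3 and BID, and the effectors BAX and BAK1. All 10 were in the table, and all 10 were among the 12559 genes that reached 1 TPM in at least 3 of 21 libraries. BCL2A1 is the exception in level, with group means between 0.246 and 1.29 TPM. It reached 1 TPM only in libraries labelled Aiolos knockdown and at 48 h of drug.

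The 7 groups had 3 libraries each. All were MM.1S, with no other allele or agent in the labels. Cells were untreated (0 h), or held in pomalidomide at 1 µM for 24, 48 or 72 h. The remaining groups were labelled control knockdown, ARID2 knockdown and Aiolos knockdown, and the labels place both targeted hairpins 72 h after lentiviral transduction. The sources used here name neither the control hairpin nor its time. Each target has 1 group of libraries, and no untreated sample of 24, 48 or 72 h is among the groups, so time in culture and the drug cannot be told apart. Pomalidomide binds cereblon and directs the degradation of the transcription factors Ikaros and Aiolos. Aiolos is the protein of IKZF3, and ARID2 is a subunit of the PBAF chromatin remodelling complex. Values are TPM, a gene's share of the transcripts after division by length, so levels of different genes can be set side by side. A TPM is a share of a library: in bulk samples, fewer cells of a type and less RNA per cell cannot be told apart.

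Mitochondrial apoptosis runs through direct contacts between family members. BAX and BAK1 can open pores in the outer mitochondrial membrane, BCL2, BCL-XL (from BCL2L1), MCL1 and BFL1 (from BCL2A1) hold them and their activators in check, and BH3-only proteins relay stress by occupying those guardians or by activating the effectors directly. BIM (BCL2L11), PUMA (BBC3) and NOXA (PMAIP1) are controlled largely through transcription, whereas BID is cut by caspase 8 downstream of death receptors. Plasma cells and many myelomas lean on MCL1, and some depend on BCL2. RNA levels say nothing of protein half-life, cleavage or phosphorylation, which also set the activity of these proteins.

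The libraries carried the markers of plasma cells, whose 9 listed genes summed to between 6709 and 11735 TPM. That sum moved with the groups: it was 10807 to 10994 TPM in untreated cells and 8385 to 9145 over the drug times, and 11534 to 11735 in the control, 10202 to 10618 in the ARID2 knockdown and 6709 to 7077 in the labelled libraries. Myeloid markers summed to 0.576 to 1.39 TPM untreated and 3.38 to 7.51 over the drug times, and 0.817 to 3.03 in the 3 knockdown groups. Epithelial and stromal markers summed to 41.1 to 42.7 TPM untreated and 10.4 to 11.2 at 72 h, and to 42.6 to 47.5 in the control and 14.7 to 18.7 in the labelled libraries. Erythroid markers summed to 26.8 to 28.9 TPM in the ARID2 knockdown, 13.2 to 19.9 in the control and 3.74 to 7.97 in the labelled libraries. These 3 sums rest on few genes. In at least 3 libraries 1 TPM was reached by 1 of 4 erythroid, 2 of 7 myeloid and 3 of 7 epithelial and stromal genes in the table. Sums for B cells (0.631 to 3.35 TPM) and for T and NK cells (0.5 to 5.35) were low throughout. No marker in the table was at 0 in all 21 libraries, but the B cell marker MS4A1 was listed at 0 in every library of 5 groups and the T cell marker CD3D in every library of 6. Mitochondrially encoded transcripts took 13.7% ± 0.450 (SD, n = 3) of the listed TPM at 72 h of drug, 15.5% ± 0.130 in untreated cells and 18.5% ± 0.240 in the ARID2 knockdown. The part of these shifts in the results below was not tested. ARID2 itself was at 12.2 TPM with its hairpin, against 25.6 with the control. IKZF3 went against its label: its transcript was 129.9 ± 10.4 TPM in the libraries labelled Aiolos knockdown and 81.3 ± 2.19 in the control knockdown, so those 3 libraries are named by their label throughout. Where they are counted among the knockdowns or targeted groups, that follows the label too. The rise of IKZF3 was not particular to them. IKZF3 was at 119.5 ± 1.93 TPM in the ARID2 knockdown, with libraries that overlapped the labelled ones. Untreated cells had 96.4 ± 1.77 TPM, and the group means of the drug times were 112 to 123.

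In untreated cells 2 guardians dominated. BCL2L1 stood at 369.6 ± 5.15 TPM (SD, n = 3), above 97.4% of the genes kept, and MCL1 at 353 ± 3.39, above 97.2%. The effectors followed, BAK1 at 129.9 ± 2.15 TPM and BAX at 77.4 ± 2.10. Among the 4 BH3-only members BCL2L11 led with 96.0 ± 3.75 TPM, then BID with 55.5 ± 2.77, while BBC3 with 10.5 ± 0.355 and PMAIP1 with 6.62 ± 0.415 were low. BCL2 itself was a middling transcript at 25.7 ± 1.00 TPM, above 55.5% of the genes kept.

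All 10 are protein-coding genes, here with their span in GENCODE 29 on GRCh38. BCL2 (chr18:63123346-63320128), BCL2L1 (chr20:31664452-31723989), MCL1 (chr1:150574551-150579738) and BCL2A1 (chr15:79960889-79971446) are on the minus strand. So are BBC3 (chr19:47220822-47232766), BAK1 (chr6:33572547-33580293) and BID (chr22:17734138-17774770). BCL2L11 (chr2:111119378-111168447), PMAIP1 (chr18:59899948-59904306) and BAX (chr19:48954815-48961798) are on the plus strand. BBC3 also overlaps the microRNA genes MIR3190 and MIR3191, and BAK1 shares 4.11% of its exonic bases with the antisense pseudogene GGNBP1.

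**Figure D1:**
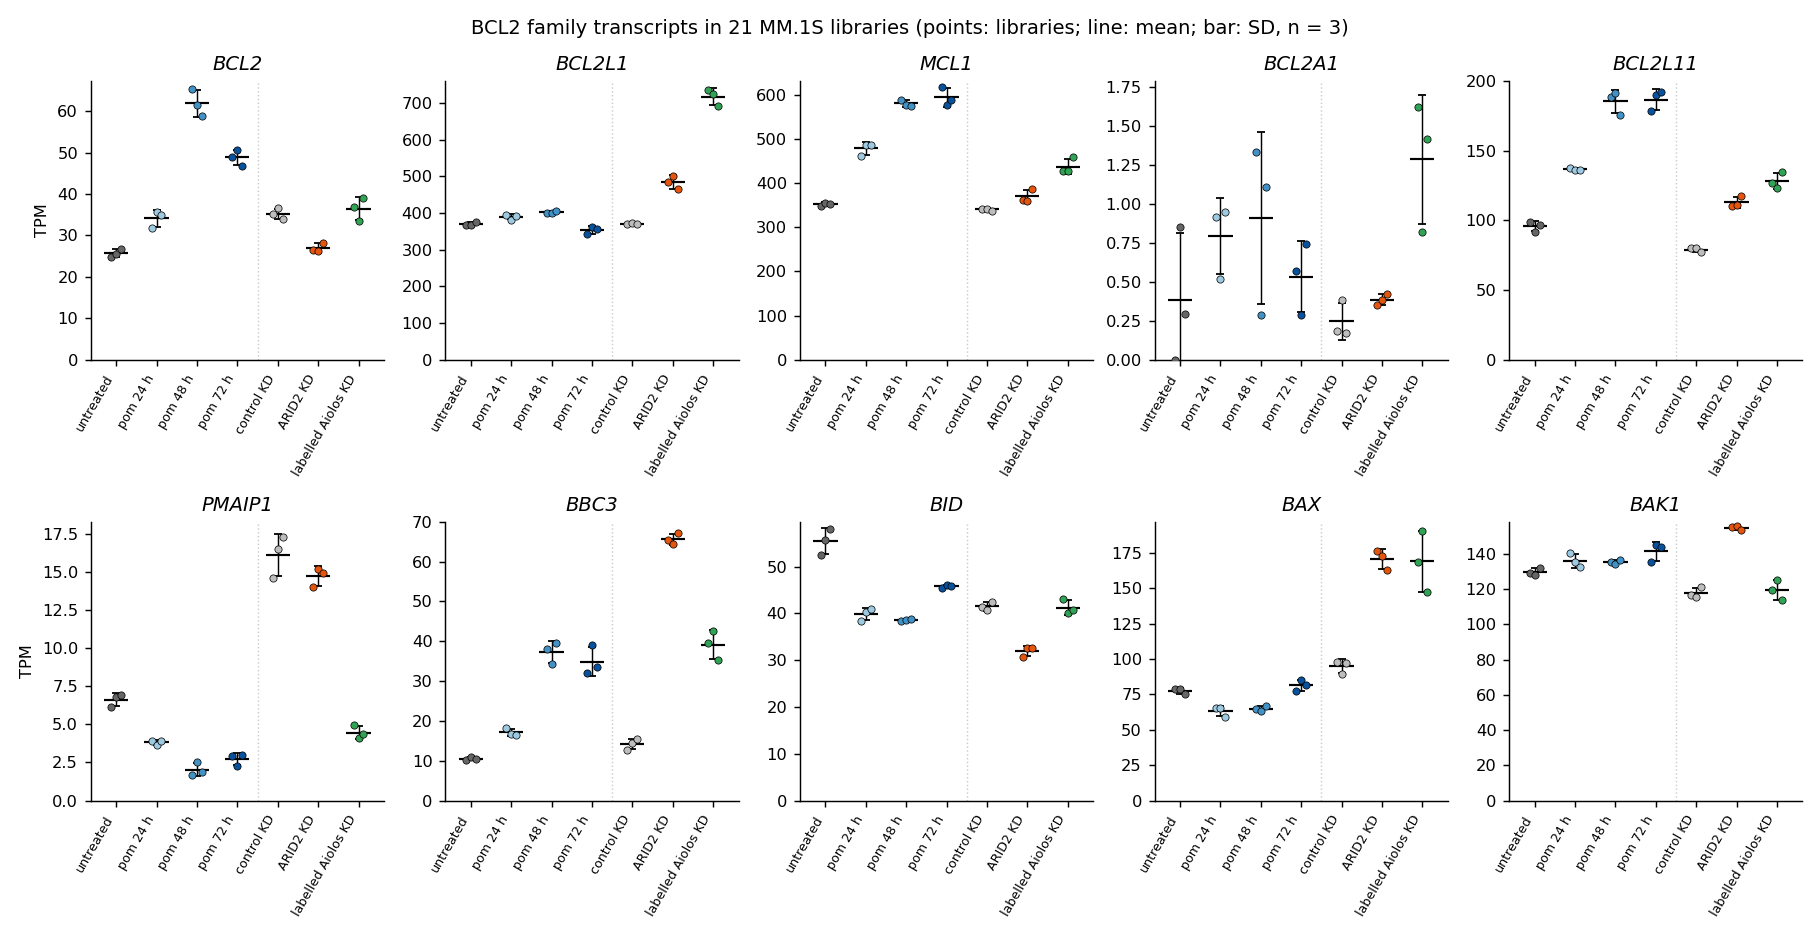
TPM of the 10 family members in each library (points) of the 7 groups, with the group mean (line) and SD (bar, n = 3; the axis stops at 0); each panel has its own linear axis from 0. BCL2, MCL1, BCL2L11 and BBC3 are above untreated cells at every drug time, with BCL2 lower at 72 h than at 48 h, PMAIP1 is below untreated cells at every drug time, and BBC3 and BAX are high in both targeted knockdowns.

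Under pomalidomide, BCL2, MCL1, BCL2L11 and BBC3 rose at all 3 times, and PMAIP1 and BID fell at all 3. After 24 h, 5 members had risen and 3 had fallen, where 35.1% of all genes tested rose, 31% fell and 66.1% changed in either direction at an adjusted p under 0.05 in limma. After 48 h the counts were again 5 and 3, with 43.8% of all genes higher, 34.8% lower and 78.7% changed. After 72 h they were 5 and 2, with 48.1%, 31.6% and 79.8%. Counts of this size are near the background and are not a result about the family. The members' median difference on the log2(TPM + 1) scale was 0.24 at 24 h, 0.29 at 48 h and 0.15 at 72 h, where the medians over all genes were 0.03, 0.08 and 0.15. The median of all genes at 72 h became 0.01 under median-of-ratios scaling and 0.05 under quantile normalization, so differences at 72 h are also given relative to the median of 0.15. The share of genes that passed at 72 h and were higher was 60.4%, and 50% and 53.7% under those scalings.

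BCL2, the guardian that venetoclax targets, rose and then partly receded. The 3 untreated libraries had 24.9, 25.4 and 26.8 TPM, the 24 h libraries 31.8, 35.7 and 35.0, the 48 h libraries 65.2, 61.6 and 58.8, and the 72 h libraries 49.0, 50.6 and 46.9. No library of 1 time overlapped another time. On the log2 scale BCL2 rose by 0.40 ± 0.0578 (SE) at 24 h (adjusted p = 5.59e-06), by 1.23 at 48 h (adjusted p = 8.55e-14) and by 0.90 at 72 h (adjusted p = 1.49e-11), or 0.75 relative to the median of all genes. The decrease from 48 to 72 h, a difference of -0.33, passed as well (adjusted p = 9.23e-05).

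MCL1, a short-lived guardian on which plasma cells depend, rose early and stayed up. Its libraries had 349, 356 and 353 TPM before drug, 462, 486 and 487 at 24 h, 589, 578 and 573 at 48 h, and 617, 575 and 589 at 72 h. All drug libraries were above all untreated ones, while the 48 and 72 h libraries overlapped. The log2 differences from untreated were 0.44 ± 0.0341 (SE), 0.72 and 0.75 (0.60 relative to all genes at 72 h), each with an adjusted p of at most 8.04e-10. Gene-level TPM does not separate the long, protective splice form of MCL1 or of BCL2L1 from the short forms that promote death.

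BCL2L1, which encodes BCL-XL, moved little under the drug. It had 366, 367 and 375 TPM untreated, 395, 382 and 393 at 24 h, 401, 401 and 405 at 48 h, and 343, 362 and 356 at 72 h. The rise at 24 h was 0.08 on the log2 scale (95% interval 0.02 to 0.14, adjusted p = 0.0273) and lost its call under median-of-ratios scaling, without a trend in the prior, and without untreated replicate 1 or 2 or 24 h replicate 1 or 3, with values between 0.02 and 0.08. At 48 h the rise was 0.12 (adjusted p = 0.000908), which median-of-ratios scaling reduced to 0.0447 with no call. Quantile normalization gave 0.24 and 0.33 at those times. At 72 h the difference was -0.06 (adjusted p = 0.0572) and did not pass, or -0.22 relative to the median of all genes. It passed as a decrease of -0.23 under median-of-ratios scaling, of -0.0803 without 72 h replicate 2 and of -0.06 without the libraries labelled Aiolos knockdown, and was 0.0217 under quantile normalization. The fall from 48 to 72 h, -0.19, passed (adjusted p = 3.99e-05), and was -0.31 under quantile normalization.

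These shifts changed the balance between the 2 most abundant guardians. Before drug their shares were close. The kit does not mark strand, and the antisense gene ABALON covers 43.0% of the exonic bases of BCL2L1. Which of the 2 was the more abundant before drug is therefore uncertain. BCL2L1 and MCL1 held 49.4% ± 0.340 and 47.1% ± 0.375 (SD, n = 3) of the summed TPM of the 4 antiapoptotic genes in untreated cells, and 35.5% ± 1.37 and 59.5% ± 1.46 after 72 h of drug. The sum itself went from 748 ± 7.98 TPM to 903 ± 12.5 at 24 h, 1045 ± 9.97 at 48 h and 997 ± 11 at 72 h. BCL2 made up 3.43% of the sum before drug and 5.92% at 48 h.

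BCL2A1 was too low to follow under the drug. Its 3 untreated libraries had 0, 0.851 and 0.296 TPM, and the drug libraries ranged from 0.286 to 1.33 TPM and overlapped them. None of the 3 drug differences passed (adjusted p = 0.108, 0.0612 and 0.448). The call at 48 h depends on the scale, since it passed at 1.38 with a pseudocount of 0.1 TPM (adjusted p = 0.0469), and calls appeared without untreated replicate 2 (0.65 at 24 h, 0.70 at 48 h) or without 48 h replicate 2 (0.73 at 48 h).

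Among the 4 BH3-only members, BBC3 had the largest log2 rise at each drug time. BBC3 encodes PUMA, an activator that binds every guardian and is a classical target of p53. Its libraries had 10.2, 10.9 and 10.6 TPM untreated, 18.2, 16.8 and 16.4 at 24 h, 38.1, 34.2 and 39.6 at 48 h, and 32.0, 39.0 and 33.6 at 72 h. The log2 differences were 0.65 ± 0.0790 (SE; adjusted p = 5.15e-07), 1.73 (adjusted p = 5.71e-14) and 1.63 (adjusted p = 1.47e-13; 1.48 relative to all genes). In linear terms the 48 h mean was 3.54-fold the untreated mean, and the 48 and 72 h libraries overlapped.

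BCL2L11, the gene of BIM, rose alongside. It had 99.2, 91.9 and 96.9 TPM untreated, 137, 136 and 136 at 24 h, 189, 192 and 176 at 48 h, and 178, 190.1 and 192 at 72 h. Every drug library was above every untreated one, with log2 differences of 0.51 ± 0.0412 (SE), 0.94 and 0.95 (0.80 relative to all genes), each with an adjusted p of at most 1.58e-09. BCL2L11 supplied 56.9% of the summed TPM of the 4 BH3-only members before drug and 69.1% at 72 h.

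PMAIP1 and BID went the other way. PMAIP1 encodes NOXA, which binds MCL1 and promotes its turnover. It had 6.15, 6.78 and 6.93 TPM untreated, 3.88, 3.64 and 3.94 at 24 h, 1.69, 2.51 and 1.89 at 48 h, and 2.92, 2.26 and 3.01 at 72 h. Its log2 differences were -0.66 ± 0.1 (SE; adjusted p = 9.19e-06), -1.34 (adjusted p = 1.71e-10) and -1.04 (adjusted p = 9.58e-09; -1.19 relative to all genes). The 48 and 72 h libraries overlapped, and the difference of 0.30 between those times (adjusted p = 0.0176) lost its call with only those 2 groups in the fit, under median-of-ratios scaling (0.24) and without 48 h replicate 1 or 3 or 72 h replicate 1 or 3 (0.22 to 0.27). BID, the link from death receptors to mitochondria, had 52.6 to 58.1 TPM in untreated libraries, 38.4 to 40.9 at 24 h, 38.4 to 38.8 at 48 h and 45.5 to 46.2 at 72 h, with log2 differences of -0.47, -0.51 and -0.27 (each adjusted p at most 6.62e-06; -0.42 relative to all genes at 72 h, -0.43 under median-of-ratios scaling).

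The effectors moved little. BAX had 78.7, 78.5 and 75.0 TPM untreated, 65.3, 65.6 and 59.1 at 24 h, 64.5, 63.4 and 66.7 at 48 h, and 77.7, 85.3 and 81.4 at 72 h. It fell by 0.29 ± 0.0664 (SE) on the log2 scale at 24 h (adjusted p = 0.000814) and by 0.25 at 48 h (adjusted p = 0.00191), and the 72 h libraries overlapped the untreated ones (0.07, 95% interval -0.07 to 0.21, adjusted p = 0.32; -0.08 relative to all genes). BAK1, the effector that sits in the mitochondrial membrane, ranged from 128 to 132 TPM untreated and from 132 to 145 TPM across the drug libraries. Its differences of 0.07 and 0.06 at 24 and 48 h did not pass (adjusted p = 0.104 and 0.121), although under quantile normalization they did, at 0.14 and 0.18. At 72 h the difference of 0.12 passed (adjusted p = 0.004), yet it was -0.03 relative to all genes and -0.04 with no call under median-of-ratios scaling.

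Steps between drug times were tested as well. Between 24 and 48 h, 4 members rose (BCL2, MCL1, BCL2L11 and BBC3, by 0.84, 0.28, 0.44 and 1.08 on the log2 scale) and 1 fell (PMAIP1, -0.68), where 32.1% of all genes rose, 26.1% fell and 58.2% changed. Between 48 and 72 h, 3 rose (BAX by 0.32, or 0.21 under quantile normalization, BID by 0.24, or 0.16 and 0.13 under median-of-ratios scaling and quantile normalization, and PMAIP1 by 0.30) and 2 fell (BCL2 and BCL2L1), where 31.6% of all genes rose, 16.5% fell and 48.0% changed. Of all genes that passed between 48 and 72 h, 65.7% were higher, and 46.1% and 53.5% under median-of-ratios scaling and quantile normalization.

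**Figure D2:**
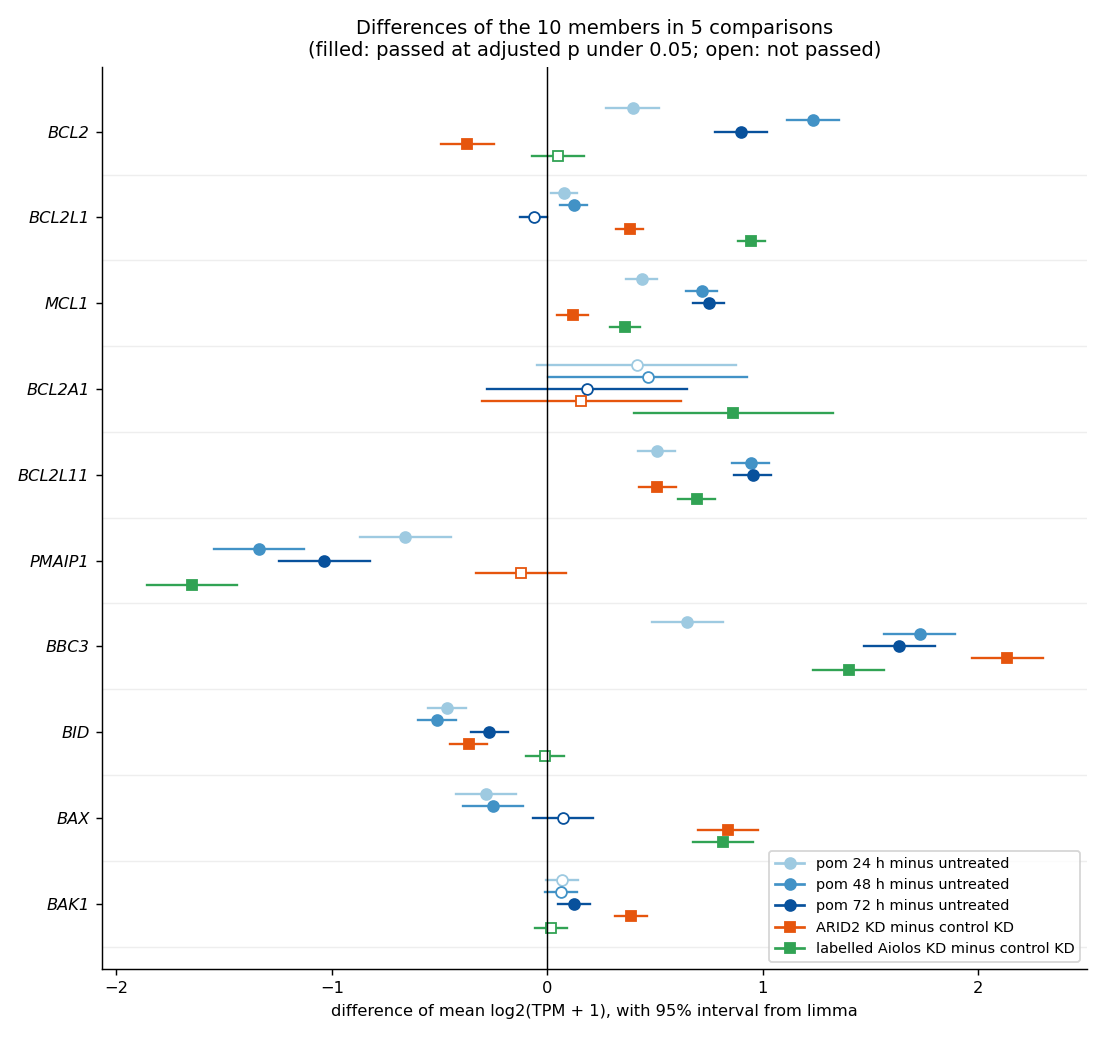
Difference of mean log2(TPM + 1) with its 95% interval from limma for each member, in the 3 drug times against untreated cells (circles) and the 2 targeted knockdowns against control knockdown (squares); filled points passed at an adjusted p under 0.05. BBC3 and BCL2L11 lie to the right in all 5 comparisons, PMAIP1 lies to the left in 4 with filled points, and BAX lies to the right with filled points in the knockdowns alone.

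In the ARID2 knockdown, 4 of the 6 proapoptotic members rose and BID fell, while of the 4 guardians BCL2L1 and MCL1 rose and BCL2 fell. Of the 10 members, 6 rose against control knockdown (BBC3, BAX, BCL2L11, BAK1, BCL2L1 and MCL1), 2 fell (BCL2 and BID) and 2 did not pass (PMAIP1 and BCL2A1), where 33.1% of all genes rose, 29.2% fell and 62.2% changed. The members' median log2 difference was 0.27, against 0.02 over all genes. In the libraries labelled Aiolos knockdown, 6 rose (BBC3, BCL2L1, BCL2A1, BAX, BCL2L11 and MCL1), 1 fell (PMAIP1) and 3 did not pass (BCL2, BAK1 and BID), where 37.2% of all genes rose, 30.7% fell and 67.9% changed. The median was 0.53, against 0.05. Both comparisons use the same 3 control libraries.

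BBC3 had its highest level of the series in the ARID2 knockdown. The control libraries had 12.8, 14.5 and 15.4 TPM, the ARID2 knockdown 65.3, 64.4 and 67.2, and the libraries labelled Aiolos knockdown 39.5, 42.6 and 35.3. Neither targeted group overlapped the control. The ARID2 mean was 4.61-fold the control mean (log2 difference 2.13 ± 0.0790 SE, adjusted p = 1.11e-14), and the mean of the labelled libraries was 2.75-fold (1.40, adjusted p = 4.30e-12). Levels in the labelled libraries overlapped those at 48 h of drug.

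BAX, the effector that moves from cytosol to mitochondria, rose with BBC3 and overtook BAK1 in level. It had 98.0, 89.5 and 97.4 TPM in the control libraries, 176, 172 and 163 in the ARID2 knockdown, and 169, 190.3 and 148 in the libraries labelled Aiolos knockdown. Both targeted groups were above every control library and overlapped each other. The log2 differences from control were 0.84 ± 0.0664 (SE; adjusted p = 1.20e-09) and 0.82 (adjusted p = 1.20e-09), and the 2 groups differed by 0.02 with a 95% interval from -0.12 to 0.16 (adjusted p = 0.793). BAK1 had 116 to 121 TPM in the control, 153 to 156 in the ARID2 knockdown (0.39, adjusted p = 9.26e-09), and 114 to 125 in the labelled libraries (0.02, 95% interval -0.06 to 0.09, adjusted p = 0.653). Its values are uncertain, since the processed pseudogenes BAK1P1 and BAK1P2 are copies of it.

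The sequence upstream of these genes is shown because BBC3 and BAX were high together in both targeted groups and PMAIP1 was low in the labelled libraries and under the drug. The motif marked in each gene was chosen with these values known. The sequences come from RefSeq (GRCh38.p14) and run 5′ to 3′ on the strand of the gene. Of the 10 members, 9 had windows of 250 bases before an annotated start, 14 windows in all, with MCL1 missing. Capitals mark CACGTG, the E-box to which MYC with MAX and related factors can bind, in BAX and BBC3. In PMAIP1 they mark GGGAA or its reverse complement TTCCC, the core of the motif of the Ikaros family. Each stretch ends where the GENCODE gene model begins.
BAX, chr19:48954625-48954814, plus strand: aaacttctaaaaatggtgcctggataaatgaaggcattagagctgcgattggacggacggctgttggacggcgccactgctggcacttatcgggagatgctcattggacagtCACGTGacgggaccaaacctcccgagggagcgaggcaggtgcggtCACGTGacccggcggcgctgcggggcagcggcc
BBC3, chr19:47232767-47232917, minus strand: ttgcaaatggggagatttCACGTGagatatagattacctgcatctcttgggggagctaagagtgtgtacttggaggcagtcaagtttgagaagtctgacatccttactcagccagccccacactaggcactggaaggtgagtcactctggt
PMAIP1, chr18:59899746-59899947, plus strand: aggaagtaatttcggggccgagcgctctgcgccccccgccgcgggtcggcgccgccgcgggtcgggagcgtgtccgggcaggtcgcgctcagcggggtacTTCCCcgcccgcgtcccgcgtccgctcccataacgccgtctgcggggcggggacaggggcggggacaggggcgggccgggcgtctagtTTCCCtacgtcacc

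The whole BAX window held 4 E-boxes, which begin 138, 93, 45 and 14 bases before the annotated start, so 2 of them lie past the printed stretch. At least 1 E-box stood in 6.34% of all 35116 windows of that length, and at least 4 stood in 5 windows (0.0142%), a cutoff chosen after the BAX count was seen. BBC3 held 1. Of the 5 windows of BID, a gene that fell in the ARID2 knockdown, 2 overlap and hold the same single E-box. The PMAIP1 window held 3 copies of GGGAA, of which the printed stretch has 2, but 59% of all windows hold at least 1, among them windows of BCL2, BCL2L1, BAK1 and BID. No member window held the full cAMP response element TGACGTCA (1.65% of windows). Shorter forms of it were not searched, and a pattern this rare could easily be absent from 14 windows. The search therefore does not show that a member lacks such an element. The p53 consensus was searched only as 2 units with no bases between them, a pattern found in 0.0171% of windows. No member window held it, but a pattern this rare could hardly turn up in 14 windows. The search therefore cannot tell whether these genes have p53 sites. Both strands were searched. A match describes letters and is not a measured binding site. The part of these motifs in the members' values was not tested.

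The guardians changed less evenly between the knockdowns. BCL2L1 had 370.0, 373 and 371 TPM in the control, 486, 502 and 465 in the ARID2 knockdown and 735, 724 and 691 in the libraries labelled Aiolos knockdown. The 3 groups did not overlap, and the log2 differences from control were 0.38 ± 0.0297 (SE; adjusted p = 9.19e-10) and 0.95 (adjusted p = 4.73e-16). The kit does not mark strand, and 43.0% of the exonic bases of BCL2L1 lie over the antisense gene ABALON, so reads of the 2 cannot be told apart. MCL1 had 342, 342 and 337 TPM in the control, 361, 360.1 and 388 in the ARID2 knockdown, and 426, 428 and 458 in the labelled libraries, with log2 differences of 0.12 (adjusted p = 0.00532; 0.26 under quantile normalization) and 0.36 (adjusted p = 1.20e-08).

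BCL2 had 35.1, 36.5 and 34.0 TPM in the control, 26.6, 26.1 and 28.3 in the ARID2 knockdown and 36.8, 33.6 and 39.1 in the labelled libraries. It fell by 0.37 ± 0.0578 (SE) on the log2 scale in the ARID2 knockdown (adjusted p = 1.38e-05), whose libraries overlapped the untreated ones. In the labelled libraries the difference was 0.05 (95% interval -0.07 to 0.17, adjusted p = 0.472), with libraries that overlapped the control. BCL2A1 rose in the labelled libraries, which had 1.62, 0.823 and 1.42 TPM where the control had 0.184, 0.385 and 0.170 (log2 difference 0.86 ± 0.221 SE, adjusted p = 0.00183, or 2.01 with a pseudocount of 0.1 TPM). The filter kept BCL2A1 only through libraries of this group and of 48 h of drug, so that choice is not independent of this test. With no filter the difference kept its direction and call. BCL2A1 did not pass in the ARID2 knockdown (0.16, adjusted p = 0.557).

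With these shifts BCL2L1 made up 55.0% ± 1.95 (SD, n = 3) of the antiapoptotic sum in the ARID2 knockdown and 60.1% ± 1.77 in the labelled libraries, against 49.7% ± 0.273 in the control. MCL1 made up 41.9%, 36.7% and 45.6%. The antiapoptotic sum was 881 ± 7.31 TPM in the ARID2 knockdown, 1192 ± 6.75 in the labelled libraries and 747 ± 5.03 in the control.

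BCL2L11 had 80.0, 80.0 and 77.4 TPM in the control, 111, 111 and 118 in the ARID2 knockdown and 127, 124 and 135 in the labelled libraries. Its log2 differences were 0.51 ± 0.0412 (SE; adjusted p = 1.62e-09) and 0.69 (adjusted p = 9.75e-12), and the 3 groups did not overlap. The antisense gene MIR4435-2HG covers 10.9% of its exonic bases, with the same limit on strand. PMAIP1 had 14.6, 16.5 and 17.3 TPM in the control, 14, 15.2 and 14.9 in the ARID2 knockdown and 4.93, 4.11 and 4.34 in the labelled libraries. Its log2 difference was -0.12 in the ARID2 knockdown (95% interval -0.33 to 0.09, adjusted p = 0.309) and -1.65 in the labelled libraries (adjusted p = 1.37e-11). BID had 40.7 to 42.5 TPM in the control, 30.7 to 32.7 in the ARID2 knockdown (-0.37, adjusted p = 2.24e-07), and 40 to 43.1 in the labelled libraries (-0.01, 95% interval -0.10 to 0.08, adjusted p = 0.844).

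Set directly against each other, the targeted knockdowns differed in 9 of 10 members, 3 higher with ARID2 knocked down and 6 lower. Of all genes 30.2% were higher, 35.7% lower and 65.9% different. PMAIP1, BBC3 and BAK1 were higher in the ARID2 knockdown, by 1.53, 0.74 and 0.37 on the log2 scale. BCL2, BCL2L1, MCL1, BCL2A1, BCL2L11 and BID were lower there than in the libraries labelled Aiolos knockdown, by values from -0.70 (BCL2A1, -1.46 with a pseudocount of 0.1 TPM) to -0.18 (BCL2L11). BCL2A1 had low means here, 0.387 TPM in the ARID2 knockdown and 1.29 in the labelled libraries. The filter kept it only through libraries of the labelled group and of 48 h of drug. That choice is not independent of this test. MCL1 was lower by -0.24, or -0.15 under quantile normalization. BAX was the member that did not pass.

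The control knockdown was itself unlike untreated cells. Of the 10 members 4 were higher in it (PMAIP1, BCL2, BBC3 and BAX) and 3 lower (BID, BCL2L11 and BAK1), where 17.3% of all genes were higher, 28.4% lower and 45.7% different. PMAIP1 stood out, at 14.6 to 17.3 TPM against 6.15 to 6.93 in untreated cells, a log2 difference of 1.17 ± 0.1 (SE, adjusted p = 1.58e-08). The other differences were 0.44 for BCL2, 0.40 for BBC3, 0.29 for BAX, -0.41 for BID, -0.27 for BCL2L11 and -0.14 for BAK1, and under quantile normalization that of BAK1 lost its call (-0.06) and that of BCL2L11 was -0.18. The low PMAIP1 of the labelled libraries, 4.11 to 4.93 TPM, was below untreated cells as well, with no overlap. What in the control knockdown goes with these values (virus, hairpin, time or culture) cannot be told apart.

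**Figure D3:**
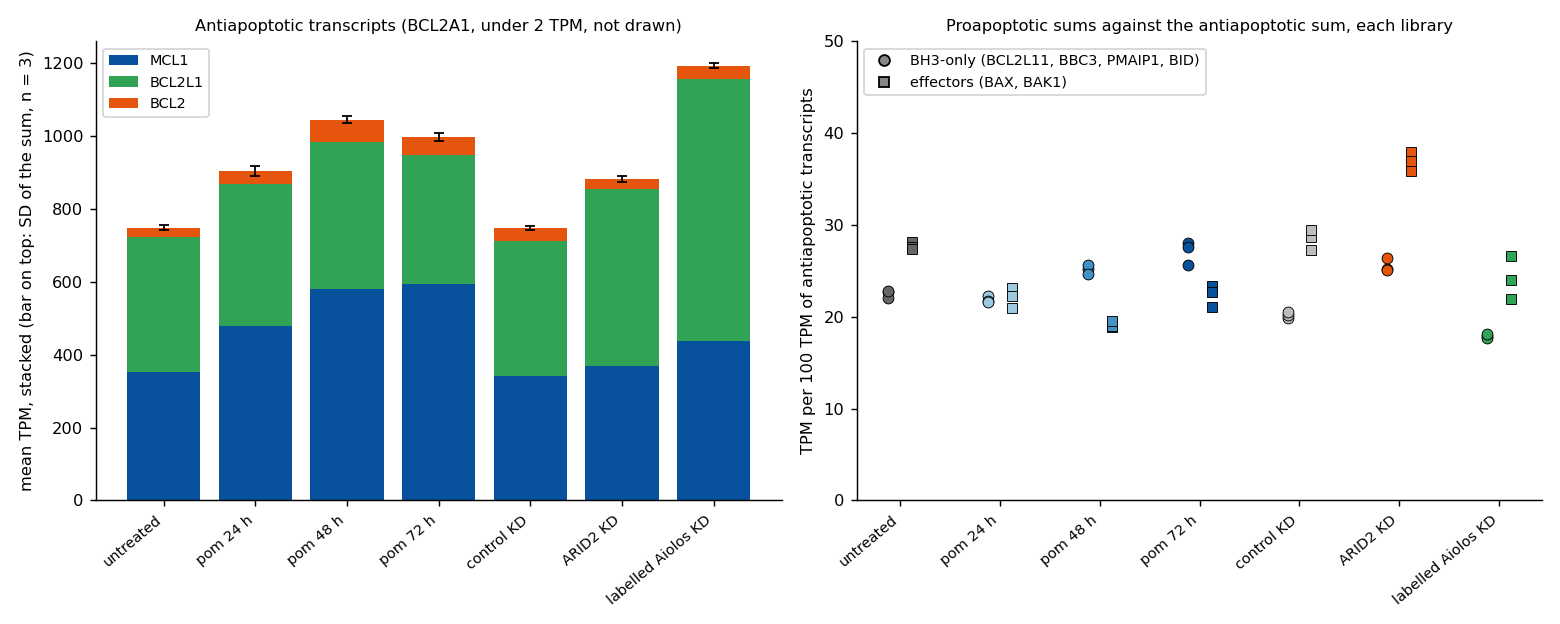
Left, mean TPM of MCL1, BCL2L1 and BCL2 stacked per group, with the SD of the antiapoptotic sum on top (n = 3). Right, the BH3-only sum (circles) and the effector sum (squares) per 100 TPM of antiapoptotic transcripts in each library. The MCL1 block is larger than the BCL2L1 block at 24, 48 and 72 h of drug and smaller in the knockdowns, and the effector points are highest in the ARID2 knockdown.

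The proapoptotic sums were set against the guardians in each library. The 4 BH3-only members together had 22.5 ± 0.419 TPM per 100 TPM of antiapoptotic transcripts in untreated cells, 21.9 ± 0.329 at 24 h, 25.2 ± 0.482 at 48 h and 27.1 ± 1.31 at 72 h (SD, n = 3). The control knockdown had 20.2 ± 0.341, the ARID2 knockdown 25.6 ± 0.687 and the labelled libraries 17.9 ± 0.175. These values depend on which BH3-only genes are summed. With BMF, a BH3-only gene that is not among the 10 members, the sum was 29.2 ± 0.712 per 100 in untreated cells, 64.6 ± 0.806, 82.4 ± 1.71 and 80.7 ± 1.93 over the drug times, 26.8 ± 0.332 in the control, 32.6 ± 0.732 in the ARID2 knockdown and 33.5 ± 0.0626 in the labelled libraries. BAD, a further BH3-only gene outside the members, is in neither sum. It had 96.6 TPM untreated and 68.0 at 24 h, and 87.2 in the control and 116 in the ARID2 knockdown. BAX and BAK1 together had 27.7 ± 0.362 per 100 in untreated cells and 22.1 ± 1.09, 19.2 ± 0.363 and 22.4 ± 1.14 over the 3 drug times. They had 28.5 ± 1.12 in the control knockdown, 36.9 ± 1.01 in the ARID2 knockdown and 24.2 ± 2.31 in the labelled libraries. These ratios of sums are a description, weighted toward the most abundant members.

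The effects of drug and knockdown were compared by testing the difference between them, each against its own control. The 72 h drug effect differed from the ARID2 effect in 8 members, 3 higher and 5 lower, where 40.4% of all genes were higher, 29.1% lower and 69.5% different. BCL2 had the widest gap: it rose with drug and fell in the ARID2 knockdown, a difference of 1.27 ± 0.0818 (SE, adjusted p = 3.27e-11), or 1.16 relative to the median of all genes of 0.11. MCL1 (0.63, or 0.52 relative) and BCL2L11 (0.44, or 0.33) also had the larger effect under drug. PMAIP1 (-0.91, or -1.02 relative), BAX (-0.77, or -0.88), BBC3 (-0.50, or -0.61), BCL2L1 (-0.45, or -0.55) and BAK1 (-0.27, or -0.38) were lower under drug relative to their controls. BID fell in both, and its difference of 0.10 did not pass (95% interval -0.03 to 0.22, adjusted p = 0.149).

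Against the labelled Aiolos effect, the 72 h drug effect differed in 7 members, 4 higher and 3 lower, where 35.0% of all genes were higher, 28% lower and 63.0% different. Relative to their own controls, BCL2 (0.85), PMAIP1 (0.61), MCL1 (0.39) and BCL2L11 (0.26, or 0.16 under median-of-ratios scaling) were higher under drug, and BCL2L1 (-1.01), BAX (-0.74) and BID (-0.26) were lower. These are differences of effects and not of levels. PMAIP1 fell in both, by -1.04 with drug and -1.65 in the labelled libraries. Its level was 2.73 TPM at 72 h and 4.46 in the labelled libraries, where untreated cells had 6.62 and the control knockdown 16.1. The part of that gap between the 2 controls in the differences of effects was not tested. BBC3 rose in both, and the difference of 0.23 did not pass (95% interval 0.00 to 0.47, adjusted p = 0.0739). Leaving out 72 h replicate 1, control replicate 1 or labelled Aiolos replicate 2 brought it past the threshold, at 0.29 to 0.31. BAK1 passed (0.13 and 0.14) without that 72 h or that labelled library. BCL2A1 passed under quantile normalization (-0.83) and without untreated replicate 1 (-0.89) or labelled Aiolos replicate 2 (-0.83). The filter kept BCL2A1 in part through libraries of the labelled group, so these calls are not independent of that choice.

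Over the 7 groups, PMAIP1 and BBC3 had the widest spans, with a highest group mean 7.95-fold and 6.23-fold the lowest, apart from BCL2A1, whose 5.22-fold span rests on values near 1 TPM. BAX spanned 2.69-fold, BCL2 2.41-fold, BCL2L11 2.36-fold, BCL2L1 2.03-fold, MCL1 1.74-fold, BID 1.73-fold and BAK1 1.31-fold. The libraries of the compared groups did not overlap for 9, 9 and 8 of the 10 members at 24, 48 and 72 h of drug, as for 68.6%, 79.8% and 80.4% of all genes. They did not overlap for 6 members between 24 and 48 h (62.0% of all genes) and for 4 between 48 and 72 h (54.8%). The ARID2 knockdown and its control did not overlap for 8 members and the labelled libraries and that control for 7 (70.6% of all genes in both comparisons), the 2 targeted groups for 9 (67.7%), and control knockdown and untreated cells for 8 (58.6%). Many neighbours in the order of levels could not be separated. For BCL2 the order from high to low was 48 h, 72 h, labelled Aiolos, control, 24 h, ARID2 and untreated, with overlap between labelled Aiolos and control, control and 24 h, and ARID2 and untreated. For BCL2L1 the order was labelled Aiolos, ARID2, 48 h, 24 h, control, untreated and 72 h, with overlap between control and untreated. MCL1 and BCL2L11 shared 1 order, namely 72 h, 48 h, 24 h, labelled Aiolos, ARID2, untreated and control, and overlapped between 72 and 48 h alone.

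For BBC3 the order was ARID2, labelled Aiolos, 48 h, 72 h, 24 h, control and untreated, with overlap among labelled Aiolos, 48 h and 72 h as neighbours. For PMAIP1 it was control, ARID2, untreated, labelled Aiolos, 24 h, 72 h and 48 h, with overlap between control and ARID2 and between 72 and 48 h. For BAX it was ARID2, labelled Aiolos, control, 72 h, untreated, 48 h and 24 h, with overlap in the first pair, in 72 h with untreated, and in 48 h with 24 h. BAK1 ran ARID2, 72 h, 24 h, 48 h, untreated, labelled Aiolos and control, with overlap among the 3 drug times as neighbours and between the last pair. BID ran untreated, 72 h, control, labelled Aiolos, 24 h, 48 h and ARID2, with overlap from control through 48 h. For BCL2A1 every neighbouring pair overlapped.

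Genes with the most similar profiles over the 21 libraries were sought for the 6 members whose group means spanned at least 1 on the log2 scale, among genes with a mean of at least 5 TPM. Pearson's r of log2(TPM + 1) across libraries was highest with TPPP (0.945) and SP100 (0.942) for BCL2, and with TOMM7 (0.979), MAPK3 (0.958) and RPS28 (0.954) for BCL2L1. It was highest with ARHGAP6 (0.987), KDM3B (0.986) and PLK2 (0.983) for BCL2L11, with EXOSC1 (0.976), CCL3 (0.973) and SEC11C (0.964) for PMAIP1, with ISCU (0.977), TIMMDC1 (0.966) and HIVEP1 (0.962) for BBC3, and with STK32C (0.965), RPL24 (0.956) and SH3GLB2 (0.955) for BAX. The libraries share their groups, so these values describe likeness of group levels. CCL3 and the ribosomal protein genes have close copies, and their values are uncertain.

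The remaining BCL2 family genes were led by BMF, a BH3-only gene whose protein binds the guardians. BMF had 49.8, 47.8 and 52.8 TPM untreated, 385, 387 and 387 at 24 h, 584, 606 and 602 at 48 h, and 537, 540 and 526 at 72 h, so that every drug library was far above every untreated one. The log2 differences were 2.92 ± 0.0303 (SE), 3.55 and 3.39, each with an adjusted p of at most 3.05e-23. BMF alone had 1.96, 2.27 and 1.98 times the summed TPM of the 4 BH3-only members at 24, 48 and 72 h, against 0.297 times in untreated cells. It rose from 49.1 ± 0.418 TPM in the control to 62.0 ± 1.16 in the ARID2 knockdown (0.33, adjusted p = 1.08e-08) and to 185.7 ± 1.90 in the labelled libraries (1.90, adjusted p = 4.35e-20). Of the 15 further family genes 11 were kept, of which 3 rose and 3 fell at 24 h, 6 and 4 at 48 h, 7 and 3 at 72 h, 3 and 2 in the ARID2 knockdown, and 6 and 1 in the labelled libraries. In those 5 comparisons 6, 10, 10, 5 and 7 of the 11 changed, where 66.1%, 78.7%, 79.8%, 62.2% and 67.9% of all genes did. BNIP3L, a receptor for the removal of mitochondria, rose in all 5 comparisons, by 0.95, 1.40, 1.18, 0.43 and 0.61. BAD, a BH3-only gene regulated by phosphorylation, fell at 24 h (-0.50) and rose in the ARID2 knockdown (0.41). In untreated cells its 96.6 ± 1.96 TPM was close to that of BCL2L11. BCL2L13, which resembles BCL2 and sits in the outer mitochondrial membrane, rose at 48 h (0.43), at 72 h (0.42, or 0.26 under median-of-ratios scaling) and in the labelled libraries (0.54).

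**Figure D4:**
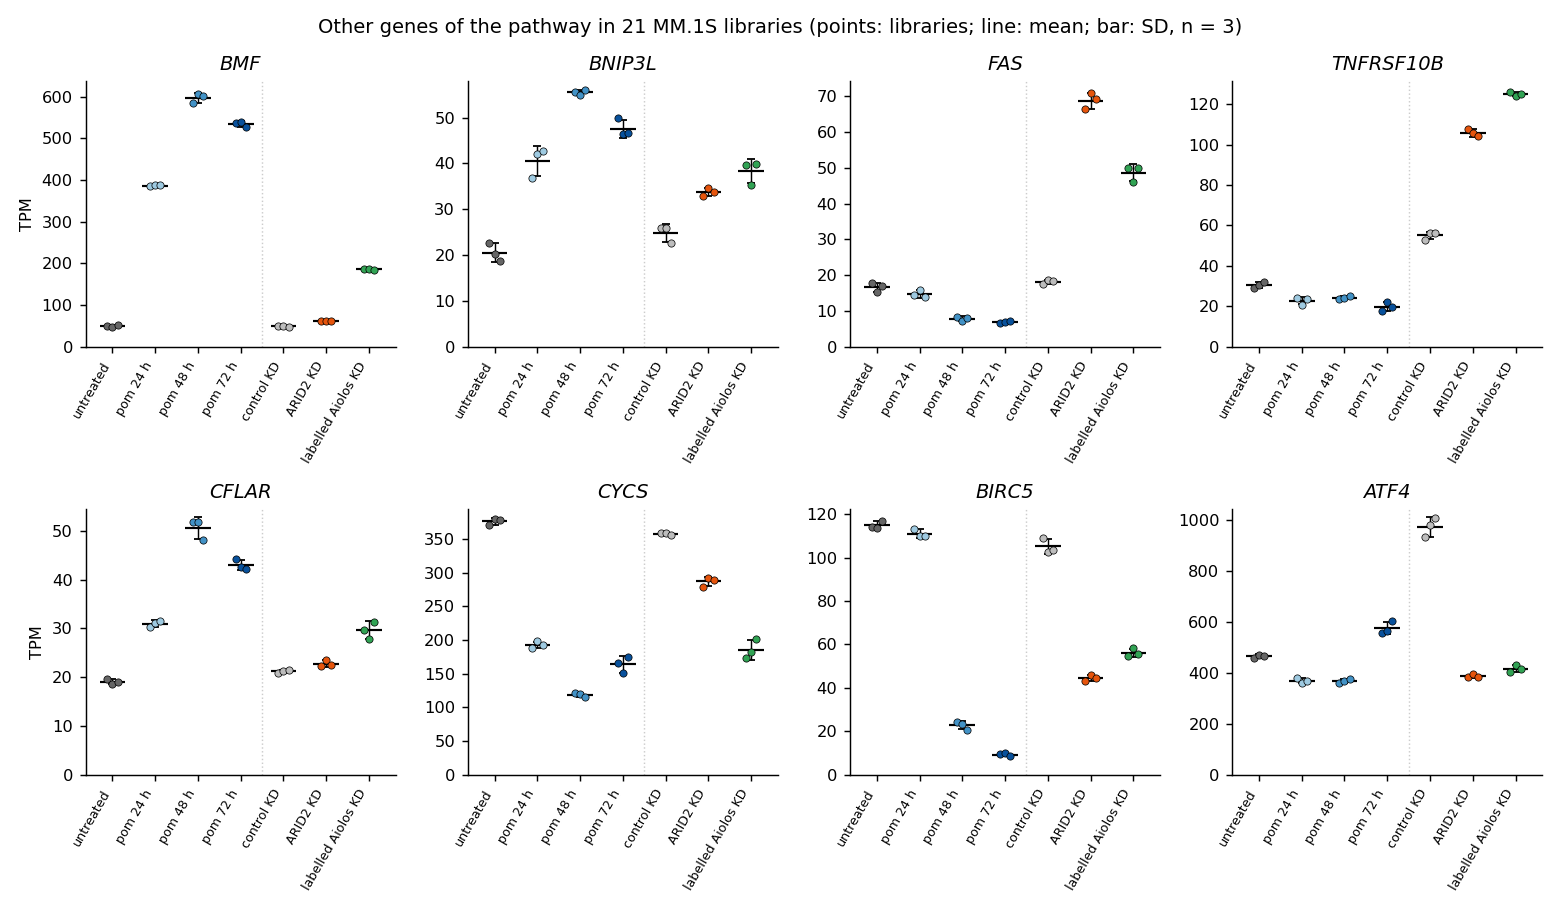
TPM of 8 further genes of the pathway in each library (points) of the 7 groups, with mean (line) and SD (bar, n = 3), each on its own linear axis from 0. BMF is high at all drug times, FAS and TNFRSF10B are high in the targeted knockdowns, CYCS is low under drug, BIRC5 is low at 48 and 72 h, and ATF4 is highest in the control knockdown.

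Genes listed with the steps after the mitochondrial pore, a list that also holds the VDAC channels of the outer membrane, were mostly lower under the drug. Of 16, all kept, 10 fell and 1 rose at 24 h, where 31% of all genes fell and 35.1% rose. At 48 h 14 fell and 1 rose (34.8% and 43.8% of all genes), and at 72 h 13 and 1 (31.6% and 48.1%), with median log2 differences of -0.40, -0.41 and -0.43 where those of all genes were 0.03, 0.08 and 0.15. CYCS, the gene of cytochrome c, which triggers caspase activation once released, fell from 376 ± 5.26 TPM (SD, n = 3) to 118 ± 3.08 at 48 h (-1.66, adjusted p = 5.27e-17), and VDAC1, a channel of the outer membrane, fell by 0.89 on the log2 scale. PARP1, a nuclear caspase substrate, fell by 0.74 at the same time. In the ARID2 knockdown 6 rose and 5 fell (33.1% and 29.2% of all genes), HTRA2, a mitochondrial protease, among the latter (-0.89). In the labelled libraries 1 rose and 8 fell (37.2% and 30.7% of all genes), CYCS among them (-0.95).

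Death receptors reach the family through BID, and FAS and TNFRSF10B were high in the knockdowns. Of 12 listed genes 11 were in the table and kept. FAS, a death receptor, rose from 18.1 ± 0.645 TPM in the control to 68.7 ± 2.25 in the ARID2 knockdown (1.87, adjusted p = 6.41e-15) and 48.6 ± 2.32 in the labelled libraries (1.37, adjusted p = 3.56e-13). TNFRSF10B, a receptor for TRAIL, rose by 0.93 and 1.17. Under the drug both fell, FAS by 1.14 and TNFRSF10B by 0.61 on the log2 scale at 72 h. TNFSF10, which encodes TRAIL, rose at 24 h (1.12) and 48 h (1.53) and in the labelled libraries (1.61), and CFLAR, an inhibitor of caspase 8, rose at 24, 48 and 72 h (0.67, 1.36 and 1.14). TRADD, an adaptor of TNF receptor 1, rose by 0.67, 1.42 and 1.40. By count, 6 rose and 2 fell at 24 h, 6 and 3 at 48 h, 8 and 2 at 72 h, 6 and 2 in the ARID2 knockdown, and 9 and 0 in the labelled libraries. Of the 11, 8, 9, 10, 8 and 9 changed, where 66.1%, 78.7%, 79.8%, 62.2% and 67.9% of all genes did. RIPK1, a kinase of the same receptor complexes, rose by 0.89 at 72 h, and CASP10, an initiator caspase, fell in the ARID2 knockdown (-0.42).

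Of 7 inhibitors of apoptosis 6 were kept. BIRC5, survivin, a gene also tied to cell division, fell to 22.7 ± 1.83 TPM at 48 h and 9.20 ± 0.720 at 72 h from 115 ± 1.81 (-2.29 and -3.51), and fell in the ARID2 knockdown (-1.22) and the labelled libraries (-0.89). BIRC2 rose by 0.63, 0.80 and 0.59 over the drug times, and XIAP, which binds caspases directly, rose by 0.30 at 24 h and 0.72 at 72 h. BIRC3 fell at 24 h (-0.42) and 48 h (-0.46) and rose in the ARID2 knockdown (0.47). By count, 2 rose and 1 fell at 24 h, 4 and 2 at 48 h, 3 and 2 at 72 h, 3 and 1 in the ARID2 knockdown, and 3 and 2 in the labelled libraries. Of the 6, 3, 6, 5, 4 and 5 changed, where 66.1%, 78.7%, 79.8%, 62.2% and 67.9% of all genes did. NAIP rose in the ARID2 knockdown (0.41) and in the labelled libraries (0.33, or 0.22 under quantile normalization).

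Among 25 transcription factors known to act on family genes, 24 were kept. Under the drug 9 rose and 8 fell at 24 h, 10 and 8 at 48 h, and 13 and 6 at 72 h, while 7 and 10 did in the ARID2 knockdown and 9 and 12 in the labelled libraries. Of the 24, 17, 18, 19, 17 and 21 changed, where 66.1%, 78.7%, 79.8%, 62.2% and 67.9% of all genes did. FOXO4, of a family that can activate BCL2L11 and BBC3, rose at 72 h (1.33) and in the ARID2 knockdown (1.10). ATF4, the stress factor that can activate PMAIP1 and BBC3, was at 975 ± 38.3 TPM (SD, n = 3) in the control, 387 ± 6.63 with the ARID2 hairpin (-1.33) and 417 ± 13.7 in the labelled libraries (-1.22), against 465 ± 7.39 without treatment. TP73, a relative of p53, went from 15.8 TPM before drug down to 0.821 after 72 h (a fall of -3.21), and E2F1, which can activate BH3-only genes, fell by 3.80 on the log2 scale. MYC fell by 0.83 at 24 h and by 0.88 in the ARID2 knockdown, and IRF4, on which myeloma cells depend, fell by 1.67 at 24 h and by 2.20 in the labelled libraries. The part of any of these factors in the members' values was not tested.

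For the genes that govern turnover of the MCL1, BCL2L11 and PMAIP1 proteins, 7 were kept of 8 genes in the table. At 24, 48 and 72 h 3, 5 and 5 rose and 1 fell each time, and 4 rose and 1 fell in the ARID2 knockdown, 5 and 1 in the labelled libraries. Of the 7, 4, 6, 6, 5 and 6 changed, where 66.1%, 78.7%, 79.8%, 62.2% and 67.9% of all genes did. USP9X, a deubiquitinase that stabilizes MCL1, rose by 0.35, 0.47 and 0.57 over the drug times, and MARCH5, a mitochondrial ubiquitin ligase that acts on MCL1 with NOXA, rose by 0.42 at 48 h and 0.88 at 72 h. DUSP6, a phosphatase of ERK, fell at 24 h (-0.38) and 72 h (-0.63) and rose in the ARID2 knockdown (0.24). PPP2R5A, a regulatory subunit of phosphatase PP2A, rose at 24 h (0.53), 48 h (0.61) and in the labelled libraries (0.59). FBXW7, a ubiquitin ligase subunit that acts on MCL1, rose in the ARID2 knockdown (0.29) and fell in the labelled libraries (-0.45).

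Of 12 growth signals of myeloma that bear on MCL1, 11 were kept, of which 3 rose and 3 fell at 24 h, 8 and 1 at 48 h, 8 and 2 at 72 h, 4 and 5 in the ARID2 knockdown, and 7 and 3 in the labelled libraries. Of the 11, 6, 9, 10, 9 and 10 changed, where 66.1%, 78.7%, 79.8%, 62.2% and 67.9% of all genes did. TNFRSF17, the receptor BCMA that sustains MCL1 in plasma cells, fell in all 5 comparisons, by 0.63, 0.67 and 0.85 under the drug, 0.53 in the ARID2 knockdown and 1.34 in the labelled libraries on the log2 scale. PIM2, a kinase that supports myeloma survival, fell at 24 h (-0.16, -0.03 with no call under quantile normalization), rose at 48 h (0.38), and fell in the ARID2 knockdown (-0.41, or -0.25 under quantile normalization) and in the labelled libraries (-0.58). PIM1, a related kinase, fell at 24 h (-0.54) and rose from 93.7 ± 4.93 TPM in the control to 320.4 ± 13.1 in the labelled libraries (1.76, adjusted p = 6.36e-17). JAK1, the kinase of the IL-6 receptor, rose at 48 h (0.62) and 72 h (0.48, or 0.32 under median-of-ratios scaling). TNFRSF13B, the receptor TACI, rose at 72 h (0.90) and fell in the ARID2 knockdown (-0.95).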

How the data were processed

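Poly(A) RNA libraries of MM.1S cells (TruSeq RNA v2, NovaSeq) were sequenced, per the labels' protocols, 3 for each of 7 groups. The authors deposited 1 table of TPM, 17691 genes by 21 libraries. The submitters' processing notes name build hg38, with aligner, quantifier and annotation not given in the sources used here. TPM keeps no depth, so counting error is unknown. Listed TPM summed to 951444 to 968652 per library, with 14158 to 15264 genes above 0, and no 2 libraries were identical.

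Values were analysed as log2(TPM + 1) for the 12559 genes at 1 TPM or more in at least 3 libraries. A single limma 3.58.1 fit (R 4.3.3; trend in the prior; 7 group means; 14 residual and 5.28 prior degrees of freedom) gave 11 contrasts, two-sided, with Benjamini-Hochberg adjustment over all genes and a threshold of 0.05. The log2 differences understate changes of low genes. Nothing in the labels ties the replicates to separate cultures, so p-values speak only of scatter among libraries, which may be technical. The script was tested on simulated data. Alternatives were a pseudocount of 0.1, no filter, a 5 TPM filter, median-of-ratios scaling, quantile normalization, fewer groups, no trend, a replicate block, leaving out each library and, added after seeing the data, leaving out the libraries labelled Aiolos knockdown.

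Members and lists were chosen with earlier results of these data known. Named from each further list are up to 3 genes with the smallest p among those that passed in each of 5 comparisons (3 drug times, 2 knockdowns); values of a named gene in another comparison are added for context. For each member that spans at least 1 on the log2 scale, the 3 genes with the highest Pearson's r are named. Some genes that these rules name are not reported here. Gene positions and overlaps come from GENCODE 29.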

Additional observations from a re-analysis of the deposited data

Results flagged for a closer look

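BCL2 was higher than its control under drug and lower than its control in the ARID2 knockdown. It was flagged because both effects passed in opposite directions and their difference passed. The p-value of that difference is therefore not independent of the choice. It was higher in all 3 libraries of 72 h pomalidomide (46.9 to 50.6 TPM) than in all 3 untreated ones (24.9 to 26.8 TPM), and lower in all 3 libraries of the ARID2 knockdown (26.1 to 28.3 TPM) than in all 3 control libraries (34.0 to 36.5 TPM). The difference between the effects was 1.27 on the log2(TPM + 1) scale (95% interval 1.10 to 1.44, limma adjusted p = 3.27e-11), or 1.16 relative to the median of all genes. Control knockdown was above untreated cells by 0.44, while the libraries of the ARID2 knockdown overlapped the untreated ones. The part of the control's offset in the result was not tested.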

How the results depend on the processing

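The counts of members and of all genes that passed stayed within 1.5 times their values under every alternative that was run, in all 11 comparisons. Of 110 member differences, 78 kept direction and call in every setting. Median-of-ratios scaling and quantile normalization, which centre the genes, turned the sign of small differences, without a call except for BAK1 at 72 h. Under median-of-ratios scaling BAK1 was -0.0159 at 48 h and -0.0404 at 72 h (called at 0.12 before), BAX -0.0887 at 72 h, MCL1 -0.0522, BCL2L11 -0.0743 and BAK1 -0.0245 from 48 to 72 h. BCL2 was -0.0136 and BAK1 -0.0443 in the libraries labelled Aiolos knockdown, and the difference of drug and ARID2 effects was -0.0200 for BCL2A1 and -0.0295 for BID. Under quantile normalization BCL2L1 was 0.0217 and BCL2A1 -0.0373 at 72 h, BCL2A1 -0.0389 and BAK1 0.0448 from 24 to 48 h, and MCL1 -0.0516, BCL2L11 -0.0864 and BAK1 -0.0653 from 48 to 72 h. MCL1 was 0.0089 in control knockdown against untreated, and the difference of drug and ARID2 effects was -0.16 for BCL2A1.

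Leaving out 1 library at a time gave ranges that crossed 0 for differences that had not passed. For BCL2A1 these were -0.0254 to 0.42 at 72 h, -0.32 to 0.13 in control knockdown against untreated, -0.18 to 0.26 between drug and ARID2 effects, and -0.12 to 0.31 from 24 to 48 h. They were -0.0121 to 0.0611 for BAX and -0.0254 to 0.0167 for BAK1 from 24 to 48 h, -0.0262 to 0.0438 for BCL2L11 from 48 to 72 h, and -0.00053 to 0.0179 for BCL2L1 in control knockdown against untreated. In the labelled libraries they were -0.0011 to 0.11 for BCL2, -0.0156 to 0.0525 for BAK1 and -0.0404 to 0.0107 for BID, and -0.0715 to 0.11 for BAX between the targeted knockdowns. The cause of these sign changes was not tested. BCL2A1 is not among the genes kept with a 5 TPM filter.

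Replicate numbers did not pair the libraries: over 27 same-numbered pairs in 9 comparisons the correlation of deviations ran from -0.119 to 0.0765, and in 5 of the 27 it was the highest with the library's own number. With a replicate block, 8, 8 and 7 members passed at 24, 48 and 72 h, 8 in the ARID2 knockdown and 7 in the labelled libraries, as without it, and 8253 genes against 8301 passed at 24 h. TPM holds no counts, so the counting error of low members such as BCL2A1 and PMAIP1 is unknown.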
